A study of Xenopus laevis with 2 samples.

Results

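The genes of ribosome production and of the nucleolus were examined in Xenopus laevis animal caps expressing xnr2 (nodal2), a secreted Nodal signal. Members were picked by symbol from the deposited gene models. The rule itself uses no measured value, but it was chosen with earlier results of these data known. The symbols were NCL, NPM1 to NPM3, FBL, DKC1, NHP2, GAR1, BOP1, PES1, BMS1, LTV1 and those of the NOP, UTP, RRP, RRS1, POLR1, NOL, NOC, IMP and TSR families. This gave 84 models of 55 symbols, out of 24364 models in all. The rule also names NOLC1 and TSR1, for which no model was analysed here.

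The study injected xnr2 RNA into early cleavage embryos, cut the caps at stage 10 and harvested them at stage 14, pooling 10 explants for each RNA extraction. Its 2 libraries, numbered 1 and 3 in the labels, are replicates of 1 group with exogenous xnr2 expression, and both carry the injected RNA. They held 25880104 and 29238297 exon reads. Control caps were not analysed here, and no value below measures what xnr2 did. Nothing in the labels says whether the pools came from separate clutches, so their spread may be technical. In bulk tissue, fewer cells of a type and less RNA per cell cannot be told apart.

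Ribosomes are built in the nucleolus, where RNA polymerase I transcribes the ribosomal RNA precursor. Small nucleolar ribonucleoproteins (snoRNPs) modify that precursor, and sets of assembly factors fold, trim and pack it into the small and large subunits. In Xenopus the egg carries a store of maternal ribosomes, and the embryo resumes ribosomal RNA synthesis after the midblastula transition.

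The caps were checked against markers of the tissues they could hold. All 8 symbols of the muscle and paraxial mesoderm list reached 1 CPM (counts scaled to 1000000 exon reads per library), with a summed level of 20501 CPM in library 1 and 20311 CPM in library 3. The epidermis list summed to 372 and 95.3 CPM, with 5 of 8 symbols at 1 CPM. The notochord list, with 4 of 5 symbols matched and all 4 at 1 CPM, summed to 437 and 782 CPM. The endoderm list, with 5 of 7 matched and 3 at 1 CPM, summed to 1087 and 1145 CPM, and HHEX had 0 reads in both libraries. Levels of the epidermis and notochord lists thus moved between the libraries, and their part in the differences described below was not tested.

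Nearly all members were expressed, and most were abundant. Of the 84 models, 83 reached 1 CPM in both libraries, where 62.8% of all models did. At 10 CPM the count was 77 models against 37.1% of all models, and at 100 CPM it was 57 models against 7.38%. The median member stood at 158 CPM, with the middle of the members between 81.8 and 241 CPM (quartiles), and the median of all models at 4.53 CPM. Above the 90th percentile of all models (82.0 CPM) lay 63 members. All 84 members together took 3.15% of exon reads in library 1 and 2.79% in library 3. NCL, NPM1 and DKC1 supplied 53.7% and 50.7% of these member reads in libraries 1 and 3, so these 3 genes made up most of the group's total.

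The exception at 1 CPM was a model of NOL4 on chromosome 6L, which had 3 and 1 reads in libraries 1 and 3. Its S copy (6S) stood at 4.52 and 3.59 CPM. NOL4 is matched by its name, "nucleolar protein 4", and no role in ribosome assembly is established for it. Without NOL4, all 82 models reached 1 CPM.

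**Figure D1:**
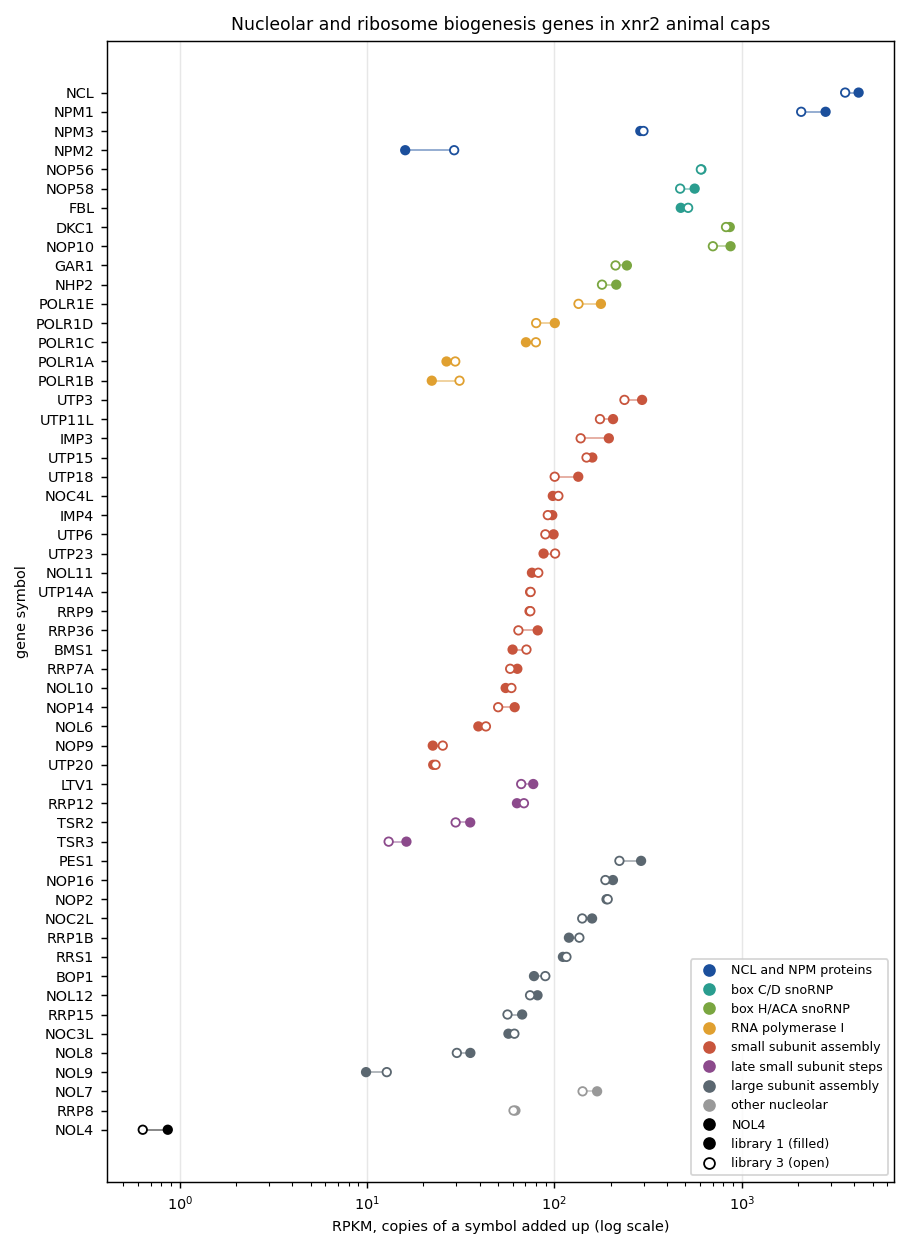
Level of each of the 55 symbols in RPKM (CPM divided by kilobases of exon, log axis), with the copies of a symbol added up. Filled points are library 1 and open points library 3, coloured by role. NCL and NPM1 stand above all others, the assembly factors spread below them from NOL9 at 11.3 RPKM to UTP3 at 266 RPKM (means), and NPM2 is the symbol whose points lie farthest apart on this axis.

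The abundant nucleolar proteins led. Nucleolin, NCL, an RNA-binding protein of ribosomal RNA transcription and processing, reached 6872 and 5906 CPM in libraries 1 and 3 from its model on Scaffold44 and 3673 and 3037 CPM from its model on 5S. These ranked the 6th and 14th of all models. RefSeq lists this gene as ncl.L and ncl.S, and the scaffold model carries no L or S label. Nucleophosmin, NPM1, a histone chaperone of the outer layer of the nucleolus, reached 3196 and 2409 CPM from its L copy (3L, 14909842 to 14919807) and 878 and 620 CPM from its S copy (3S, 14176332 to 14187014). Both genes were lower in library 3 in both copies, by less than 1.5-fold.

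Levels between genes are compared per kilobase of exon, as RPKM with the copies added up. Within the nucleoplasmin family NPM1 stood at 2445 ± 515 RPKM (SD over 2 libraries, here and below). Its relative NPM3 stood at 294 ± 7.94 RPKM, which is 10.3% of the NPM1 level in library 1 and 14.4% in library 3. Nucleoplasmin proper, NPM2, the histone chaperone that eggs use to remodel sperm chromatin, had 16.0 RPKM in library 1 and 29.2 in library 3. The order NPM1, NPM3, NPM2 held in each library with no overlap.

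Box C/D snoRNPs guide ribose methylation of ribosomal RNA, and 3 of their core proteins are members. The methyltransferase fibrillarin, FBL, had 474 and 518 RPKM in libraries 1 and 3. Its scaffold partners were NOP56 at 610 and 606 RPKM and NOP58 at 562 and 470 RPKM. The highest of the 3 exceeded the lowest by 1.29-fold in both libraries, and FBL and NOP58 changed places between libraries. NHP2L1, a core protein of the same particles that the naming rule leaves out, lay above all of them at 1153 and 1011 RPKM with its copies added up. All 6 models exceeded 10 CPM, and 5 exceeded 100 CPM. NOP56 came almost wholly from its model on Scaffold54, at 1129 and 1135 CPM, while its model on 1S (482007 to 485407) had 76.0 and 66.1 CPM. RefSeq gives this gene the name nop56.L.

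Box H/ACA snoRNPs guide the change of uridine to pseudouridine, and all 4 of their core proteins are members. The pseudouridine synthase dyskerin, DKC1, had 865 and 826 RPKM from a model on 8L (16177591 to 16185925). The small subunit of the complex, NOP10, had 873 and 703 RPKM. GAR1 was lower at 244 and 212 RPKM, and NHP2 at 214 and 180 RPKM. DKC1 thus lay 4.04-fold above NHP2 in library 1 and 4.59-fold in library 3, and neither library placed GAR1 or NHP2 near DKC1 or NOP10. DKC1 and NOP10 changed places between libraries. The NHP2 level depends on its gene models, since the S model holds 2787 bp of exon and the L model 1082 bp at nearly the same number of reads.

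RNA polymerase I was represented by 5 subunits, each with 1 model. POLR1E, a subunit of the polymerase I heterodimer, was highest at 177 and 135 RPKM in libraries 1 and 3. POLR1D and POLR1C, which RNA polymerase III shares, stood at 101 and 80.0 RPKM and at 70.6 and 79.8 RPKM. POLR1D was above POLR1C in both libraries, by little in library 3. The catalytic subunits were lowest of these 5 per kilobase, with POLR1A at 26.6 and 29.6 RPKM and POLR1B at 22.2 and 31.2 RPKM. This order depends on model length, which was 6168 bp for POLR1A, 5011 bp for POLR1B and 464 bp for POLR1D. Without division by length POLR1A (164 and 183 CPM) and POLR1B (111 and 156 CPM) lay above POLR1D (46.7 and 37.1 CPM). Subunits that the naming rule leaves out were ZNRD1, at a mean of 25.1 RPKM, TWISTNB at 62.2 RPKM and CD3EAP at 66.9 RPKM. POLR1A and POLR1B changed places between libraries. The POLR1A model (1L, 10191056 to 10252996) lies over a model called MRPL35 on the other strand with almost the same span, and the reads were equal to within 4 (4245 and 4241 in library 1, 5340 and 5339 in library 3). The kit does not mark strand, so the same reads can count for both names and POLR1A is uncertain.

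Factors of the small subunit processome, the particle that forms on the nascent ribosomal RNA precursor, formed the largest set, with 28 models of 20 symbols. Their median was 150 CPM. All of them reached 1 CPM and 27 reached 10 CPM in both libraries. Among single models, the GTPase BMS1 had the highest mean, at 262 and 310 CPM in libraries 1 and 3 (7L). UTP3 followed at 291 and 232 CPM from its S copy (7S). UTP11L stood at 269 and 229 CPM (2L), and IMP3, a partner of the U3 snoRNA, at 264 and 171 CPM (4L). The first 4 of this set therefore overlapped between libraries and have no firm order. The lowest was the S copy of UTP23 at 7.65 and 9.30 CPM (6S). Per kilobase the range of symbols ran from UTP20, the factor with the longest model (8786 bp), at 22.9 ± 0.461 RPKM to UTP3 at 266 ± 40.5 RPKM.

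Late steps of the small subunit, in which it is exported and finished, were represented by 5 models of 4 symbols. With copies added up they ran from TSR3 at 14.7 ± 2.26 RPKM to LTV1 at 71.9 ± 7.51 RPKM. RRP12, an export factor, reached 258 and 281 CPM (7S) in libraries 1 and 3, and LTV1, which chaperones the late particle, reached 177 and 153 CPM (5L). TSR2, which in yeast and human escorts a ribosomal protein, had 27.4 and 22.3 CPM on Scaffold50 and 1.43 and 2.60 CPM on 8S. The ribosomal RNA modifying enzyme TSR3 had 19.3 and 15.5 CPM (9_10L). RRP12 and LTV1 lay above both TSR genes in each library, also per kilobase.

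Large subunit factors numbered 19 models of 12 symbols. Their median was 127 CPM, and each reached 10 CPM in both libraries. PES1 was highest with copies added up, at 840 and 648 CPM in libraries 1 and 3. Its S copy (1S) had 486 and 314 CPM and its L copy (1L) 354 and 334 CPM. NOP2, a ribosomal RNA methyltransferase with 1 model (7L), had 478 and 485 CPM, below the S copy of PES1 in library 1 and above it in library 3. NOC2L reached 328 and 294 CPM (7S). PES1, BOP1 and WDR12 form the PeBoW complex, and per kilobase PES1 (257 ± 48.1 RPKM) exceeded BOP1 (83.8 ± 8.23 RPKM) in both libraries, with WDR12, which is no member, between them at 149 ± 27.2 RPKM. The excess of PES1 over BOP1 was 3.73-fold in library 1 and 2.49-fold in library 3. NOL9, a kinase that acts on the ends of ribosomal RNA pieces, was the lowest at 23.9 and 30.8 CPM (7L).

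The remaining members were RRP8, a methyltransferase of ribosomal RNA, with 149 and 147 CPM over its copies in libraries 1 and 3, and NOL7 with 130 and 109 CPM (6L).

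The other known ribosome biogenesis genes, in a list chosen with earlier results of these data known, were expressed like the members. Of 121 symbols, 114 matched 157 models, of which 156 reached 1 CPM in both libraries. Their median was 111 CPM and they took 2.44% and 2.24% of reads in libraries 1 and 3. The RNA helicase DDX21 led with 841 and 766 CPM (7S), ahead of EBNA1BP2 at 731 and 610 CPM (4L) and the GTPase GTPBP4 at 690 and 649 CPM (6L). FTSJ3, a methyltransferase, had 613 and 468 CPM (7L), and NHP2L1 had 583 and 484 CPM (4L). RPF2, a large subunit factor, had 562 and 409 CPM (5S).

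The difference between the libraries was then measured, to see how far the level of these genes varied between pools of explants. Reads of each model were set against the split of all exon reads by an exact two-sided binomial test, adjusted over 18820 models with 10 or more reads. This compares these 2 libraries and not conditions, and covers counting error only. A model was called when the adjusted p was under 0.05 and the levels differed by 1.5-fold or more.

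Of 83 members tested, 4 were called higher in library 3 against 10.4% of all models, and 2 were called lower against 8.62%. In either direction the share was 7.23% of members and 19.1% of all models. The members are abundant, however, and among models between the members' quartiles of level 7.02% were called. Of the called members, only the L copy of IMP3 (mean 218 CPM) lay in that range. The NPM2 models and TSR2 on 8S lay below it, and the S copy of PES1 (mean 400 CPM) above it. The share of members called within that range was not computed, so 7.23% and 7.02% do not compare like levels. At any size of difference 66 members (79.5%) passed the adjusted p, against 53.1% of all models and 81.3% of those between the members' quartiles of level. Members had a median log2 ratio (library 3 over library 1) of -0.08, and all models one of 0.05. In library 3, 37 members were higher, where 54.4% of all models were, and 46 were lower. Under TMM scaling these member counts were 29 and 54. That scaling moved all models too, to a median log2 ratio of -0.00. Their share higher in library 3 under it is not given here, so 54.4% is no background for the TMM counts. Of the 78 members at a mean of 10 CPM or more, 75 lay within 1.5-fold, and the other 3 were called, where 12% of all models at that level were.

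**Figure D2:**
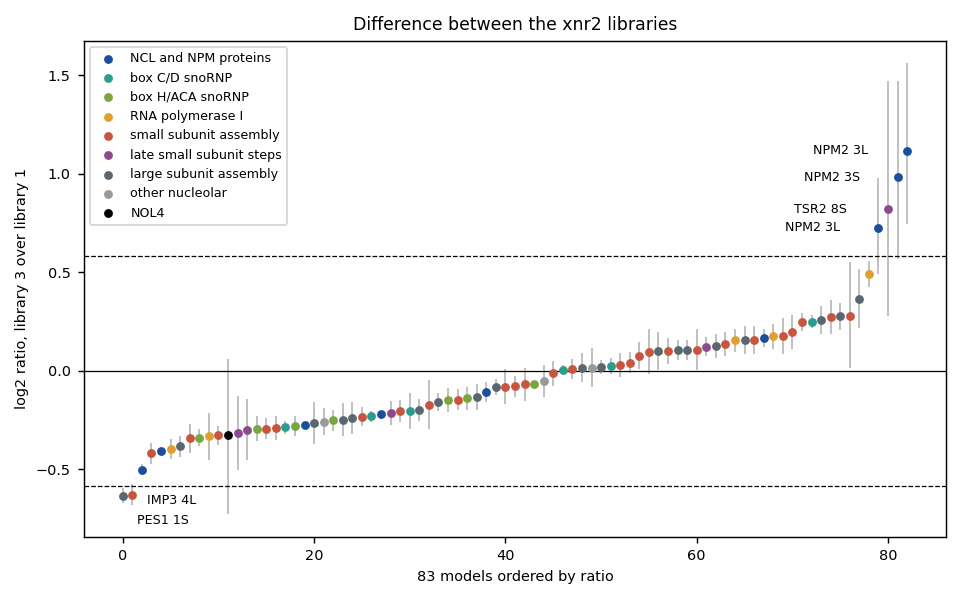
Log2 ratio of library 3 over library 1 for the 83 members with 10 or more reads, ordered by ratio and coloured by role. Grey bars are 95% exact intervals of counting error and dashed lines mark 1.5-fold. The 3 models of NPM2 and a model of TSR2 lie above the upper line, and the S copy of PES1 and the L copy of IMP3 below the lower one.

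The members called higher in library 3 were all low in level. All 3 NPM2 models were among them. The first (3L, 122329341 to 122334593) had 8.23 and 13.7 CPM in libraries 1 and 3, a log2 ratio of 0.73 with a 95% interval of 0.49 to 0.98 and an adjusted p of 5.71e-09 in the exact test. The second (3L, 121456149 to 121464142) had 2.78 and 6.16 CPM, or 72 and 180 reads. The third (3S, 23096722 to 23101141) had 2.36 and 4.75 CPM, or 61 and 139 reads. Their log2 ratios were 1.12 and 0.98. The 3 models of this egg protein thus lay on the same side. How reads of near-identical copies were split is not known here. The remaining call was the model of TSR2 on 8S (37 and 76 reads, log2 ratio 0.82), whose other model, on Scaffold50, had a log2 ratio of -0.30. RefSeq lists this gene only as tsr2.L.

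The members called lower in library 3 were abundant. PES1 from its S copy (1S, 117713432 to 117737399) had 486 CPM in library 1 and 314 CPM in library 3, a log2 ratio of -0.63 with a 95% interval of -0.67 to -0.59. Its L copy had 354 and 334 CPM, a log2 ratio of -0.08. IMP3 from its L copy (4L, 110193250 to 110245643) had 264 and 171 CPM, also a log2 ratio of -0.63, with an interval of -0.68 to -0.57. Its S copy had 44.0 and 47.0 CPM. In both genes the ratio of the called copy was farther from 0, and the difference between the copies was not tested.

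Next in order came models that passed the adjusted p but stayed within 1.5-fold. On the lower side these were both copies of NPM1, with log2 ratios of -0.50 (3S) and -0.41 (3L), UTP18 at -0.42 and POLR1E at -0.40. On the higher side POLR1B had a log2 ratio of 0.49 (111 and 156 CPM), NOL9 0.37 and BOP1 from 6L 0.28. Polymerase I subunits therefore lay on both sides, with 3 of 5 higher in library 3. The higher ones, POLR1A, POLR1B and POLR1C, had the longer models (6168, 5011 and 1960 bp of exon), and POLR1A is uncertain for its overlap. POLR1E and POLR1D had 1414 and 464 bp. Centred on the length classes described below, POLR1B stood at 0.29 and POLR1E at -0.29. The part of exon length in this split was not tested.

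By role, all 7 models of the 4 box H/ACA proteins were lower in library 3, where 54.4% of all models were higher. Their log2 ratios ran from -0.34 to -0.07 with a median of -0.25, and none reached 1.5-fold. The lowest ratios were those of short models, NOP10 on 1S (732 bp), NHP2 on 3L (1082 bp) and NOP10 on 1L (704 bp). The part of exon length in this was not tested. The box C/D models were 3 higher and 3 lower, with a median of -0.10. Small subunit factors were 14 higher and 14 lower, with a median of -0.00, and large subunit factors 10 higher and 9 lower, with a median of 0.02. Under TMM scaling the box C/D models became 1 higher and 5 lower, small subunit factors 11 and 17, and large subunit factors 8 and 11 with a median of -0.04, so these counts depend on the scaling. The median of the large subunit factors changed sign, and those of the box C/D models (-0.15) and small subunit factors (-0.06) stayed below 0. The box H/ACA and polymerase I counts were the same under TMM and DESeq2 scaling. All models had medians of -0.00 and 0.01 under these scalings, and their share higher in library 3 is not given for them. No test of these role medians was made.

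Cytoplasmic ribosomal protein genes, whose products the members assemble, differed more between the libraries than the members did. Of 145 tested models 142 were lower in library 3, where 54.4% of all models were higher, and the median log2 ratio was -0.46. Of these models 27 (18.6%) were called lower, against 8.62% of all models, and 0 were called higher. In either direction the share was thus near the 19.1% of all models, and the calls differed in direction. Their models are short, with a median of 843 bp of exon against 2154.5 bp for members, and the part of length in their ratios was not tested. The other biogenesis genes resembled the members, with a median of -0.06 and 66 of 157 models higher. Of the 157 models, 153 had a mean of 10 CPM or more. Of all 157, 6 were called (3.82%), against 19.1% of all models and 12% of all models at 10 CPM or more. The latter had a median of only 36.0 CPM, against 111 CPM for this list. Among models between the members' quartiles of level (81.8 to 241 CPM) 7.02% were called. The list was not compared with models of its own level. Among the 6, the polymerase I factor UBTF had 102 and 159 CPM in libraries 1 and 3 (9_10L), and the selectivity factor subunit TAF1C had 15.2 and 28.0 CPM (Scaffold73). The kinase RIOK2 had 182 and 119 CPM (1L) and PAK1IP1 101 and 62.2 CPM (6L). The rest were RUVBL2 on 7S (361 and 644 reads) and PAK1IP1 on 3L (3 and 16 reads), both higher in library 3. Polymerase I factors that were not called went both ways. TAF1B (log2 ratio -0.41), RRN3 (-0.29) and TAF1A (-0.17) were lower in library 3, and TAF1D (0.50) and UBTF from 9_10S (0.36) were higher.

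Exon length moved with the library ratio, so members were also set beside models of like length. The Spearman correlation of length and log2 ratio was 0.23 over the 83 tested members and 0.20 over all 18820 tested models. Over the 9565 models at a mean of 10 CPM or more it was 0.34. These describe genes of the same 2 libraries, which are not independent replicates. Models at a mean of 10 CPM or more were split into 5 length classes. In the shortest (172 to 1514 bp) the median of all such models was -0.14 and that of 18 members -0.27. In classes 2, 3 and 4, counted from the shortest, the medians of 23, 22 and 11 members were -0.11, -0.04 and 0.11, against -0.00, 0.07 and 0.13 for all models. In the longest class 4 members had a median of 0.20 against 0.25. The member median lay below that of all models in each class. Separately, the ratios of all 18820 tested models were centred on the medians of 5 length classes formed from those 18820 models. The same numbers of members were then called, 4 higher and 2 lower.

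**Figure D3:**
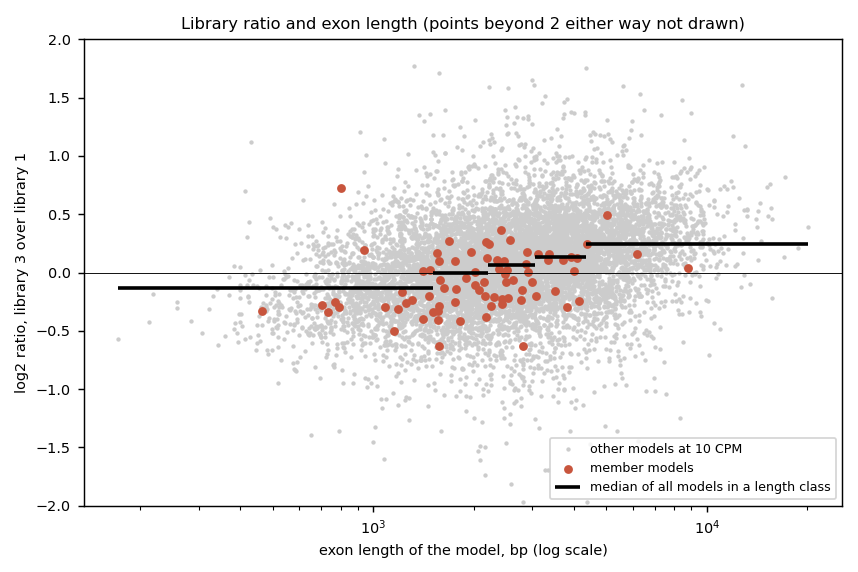
Log2 ratio of library 3 over library 1 against exon length (log axis) for all models at a mean of 10 CPM or more. Members are red points and black bars are the medians of these models in 5 length classes, which rise from -0.14 to 0.25. Most members lie between -0.5 and 0.5.

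Xenopus laevis is an allotetraploid with L and S subgenomes, so many genes have a copy on each of a pair of chromosomes. Of the 55 member symbols, 24 had exactly 1 model on an L chromosome and 1 on the matching S chromosome, which is 43.6% against 42.1% of all symbols. Another 27 had 1 model, of which 21 lay on an L chromosome, 5 on an S chromosome and 1 on a scaffold. Among all symbols with 1 model 69.5% lay on L, and among members 77.8%. RefSeq names of the species (assembly version 10.1) matched 53 of 55 symbols. Of the 27 symbols with 1 model, 26 had a RefSeq name ending in L or in S and none had both. Members with 1 model included DKC1, BMS1, NOP2, RRP12 and all 5 polymerase I subunits.

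The balance of L and S copies was tested in 4836 pairs with 10 or more reads over both copies in each library. The log2 ratio of L over S in reads per kilobase was fitted with limma over all pairs, the libraries serving as replicates. A pair was called at an adjusted p under 0.05 and 2-fold or more. Of 24 member pairs, 6 were called with L higher and 3 with S higher, against 32.5% and 22.7% of all pairs. In either direction this is 37.5% of member pairs and 55.2% of all pairs. The median size of the log2 ratio, without sign, was 0.46 in members and 1.24 in all pairs, and 15 member pairs lay within 2-fold. The other ribosome biogenesis genes lay between, with 46.2% of 39 pairs called and a median size of 0.87. With 10 reads required in each copy, 50.6% of all pairs were called, and 6 (L) and 2 (S) of 23 member pairs. Members are abundant, and they were not compared with pairs of like level. In 22 of 24 pairs (91.7%) both libraries placed the same copy higher, where 91.9% of all pairs did so.

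**Figure D4:**
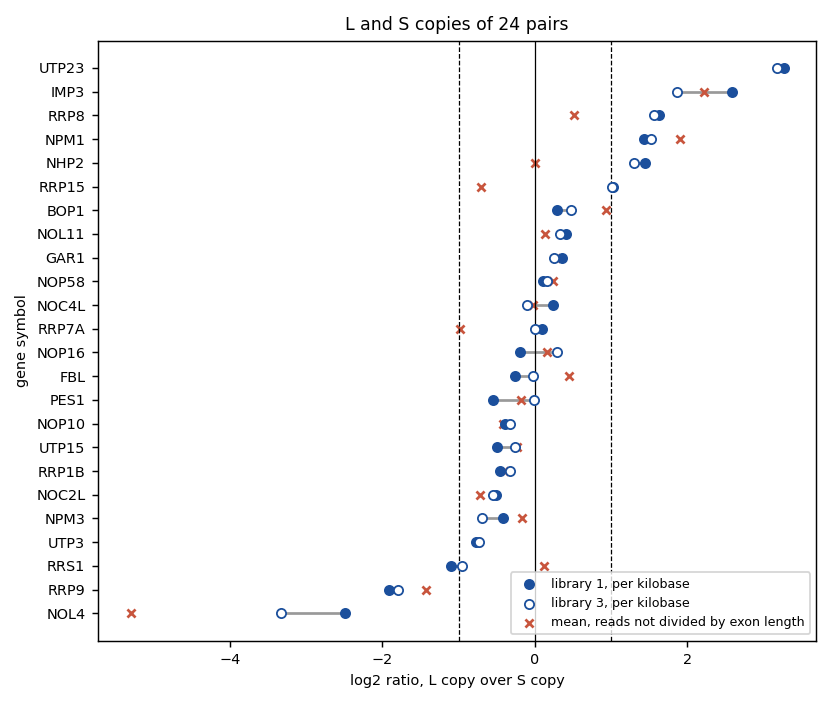
Log2 ratio of the L over the S copy in the 24 member pairs. Filled and open circles are libraries 1 and 3 in reads per kilobase, red crosses the mean without division by exon length, and dashed lines mark 2-fold. In 22 pairs both circles lie on the same side of 0, whereas the crosses of NHP2, RRP15, RRP8 and RRS1 fall on the other side of a dashed line.

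Large differences in favour of L were seen in UTP23 and IMP3. UTP23, a small subunit factor, had 79.5 and 91.0 RPKM from L in libraries 1 and 3 and 8.22 and 9.99 RPKM from S, a log2 ratio of 3.22 ± 0.06 (adjusted p = 3.31e-05, limma). The UTP23 model on 6S (114220569 to 114537360, 931 bp of exon) spans the models of MED30 and RAD21. It covers a far longer stretch than the model on 6L (138492650 to 138499144, 941 bp of exon). Whether the S model is correct was not tested, so the size of this ratio is uncertain. IMP3 had 168 and 109 RPKM from L and 27.9 and 29.8 RPKM from S, a log2 ratio of 2.23 ± 0.51 (adjusted p = 0.00029, limma). NPM1 also favoured L, with 2049 and 1544 RPKM against 760 and 537 RPKM, a log2 ratio of 1.48 ± 0.07 (adjusted p = 9.69e-05, limma). In these 3 genes the L copy exceeded the S copy in both libraries with no overlap, and without division by length the log2 ratios were 3.24, 2.22 and 1.91.

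RRP9, a protein of the U3 snoRNP, favoured S, with 15.4 and 16.6 RPKM from L in libraries 1 and 3 and 58.4 and 57.9 RPKM from S. Its log2 ratio was -1.86 ± 0.09 (adjusted p = 9.14e-05, limma). The pair of NOL4 was called as well, at a log2 ratio of -2.92 ± 0.60, but its L copy had 3 and 1 reads, too few for a fold.

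The other 4 calls rested on exon length. NHP2 (log2 ratio 1.37), RRP8 (1.59) and RRP15 (1.02) had an S model much longer than the L model, and RRS1 (-1.03) an L model of 3127 bp against 1409 bp. Without division by length the ratios became 0.01, 0.52, -0.71 and 0.12, none of them past 2-fold, and RRP15 and RRS1 changed direction. Which of the unequal models is complete was not tested. For NHP2, RefSeq lists only nhp2.S and no L name.

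The copies of 6 pairs did not differ past the adjusted p. NOP58 had 291 and 248 RPKM from L and 271 and 222 RPKM from S, a log2 ratio of 0.13 ± 0.04 (adjusted p = 0.23, limma). FBL had 216 and 256 RPKM from L against 258 and 262 RPKM from S, a log2 ratio of -0.14. NOC4L, NOP16, RRP7A and PES1 also did not pass the test, with log2 ratios from -0.28 to 0.07. A ratio that misses the threshold does not show equal copies. Model length also bears on these values: without division by length FBL stood at 0.45 (adjusted p = 0.0104, limma) and RRP7A, whose S model is 2508 bp against 1223 bp, at -0.98 (adjusted p = 0.0011, limma). Smaller differences that passed the adjusted p under 2-fold included UTP3 at -0.75, NPM3 at -0.55 and NOC2L at -0.52 toward S, and BOP1 at 0.38, NOL11 at 0.37 and GAR1 at 0.30 toward L. Without division by length NPM3 (-0.17, adjusted p = 0.209, limma) and NOL11 (0.13, adjusted p = 0.288, limma) no longer passed, and BOP1 stood at 0.93.

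Overlapping models limit some of these values, because reads without strand can count for both. In all 11 member models overlap the span of another model, 10 of them on the opposite strand. Besides POLR1A they include NOP16 on 3L (5825 reads in library 1, beside ARL10 with 4289), IMP4 on 8S (5419, beside PTPN18 with 5727) and BOP1 on 6L (2853, beside a model called SCXA with 2296). Copies whose L to S ratios are described above are among them, including NOP16 on 3L and BOP1 on 6L. So are RRP9 on 4L (1338, beside GRM2 with 677) and RRP7A on 4S (1992, beside SERHL2 with 1726). RRP8 on 2L (2295, beside ILK with 1659) is a further one. For the overlapping models named here, and for UTP23 on 6S, the share of reads that belongs to the member is not known. The others have little to share. FBL on 7L (12444 reads in library 1) overlaps KCNJ5 with 3, and NOC4L on 1L (2180) overlaps ULK1 with 14. NOC4L on 1S shares 5 bp with RNF113A.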

How the data were processed

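Per the labels' protocols, polyA-selected RNA of 10 pooled explants was converted to single-end libraries with a TruSeq kit that keeps no strand information. Per the submitters' processing notes, STAR 2.4.0k, HOMER, FastQC and edgeR were used. Per the file headers, HOMER counted exon reads on gene models of X. laevis assembly version 9.1 and rescaled; the deposited signal is a read count times 1 constant per library. How reads with several matches were handled is not stated by the labels or headers. The other 2 libraries of the header were not analysed here, and no column of another sample was used (0).

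Dividing by what 1 read is worth (0.808 in library 1, 0.715 in library 3) gave whole reads, within 0.05, for 100% of nonzero values. As all libraries are of 1 group, no group contrast exists for a count test to call genes in. A level of 3 reads, the most that a count of 0 allows, is 0.116 and 0.103 CPM. The reads carry no molecular identifiers, so this floor and all intervals cover only counting error. Models without a symbol (519) took 1.29% and 1.34% of reads and were kept.

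Library ratios are log2 of (CPM + 0.1) over (CPM + 0.1). L to S ratios have 1 read added per copy. Tests used SciPy 1.17.1, limma 3.58.1 and edgeR 4.0.16 (R 4.3.3), and were tested on simulated data. CPM and the test between libraries used total exon reads as library size. Scaling by TMM (edgeR) and by DESeq2 1.42.0 was an alternative setting only. Members, lists and tests were chosen with earlier results of these data known. Genes named are the highest of each role, the largest ratios each way among members at 10 CPM, called pairs, members under 1 CPM and the 6 highest other biogenesis genes. Every other gene was picked after its values were seen.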

Additional observations from a re-analysis of the deposited data

How the results depend on the processing

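With 1 group in the labels no groups could be paired. For the L to S ratio, edgeR's quasi-likelihood test on reads with the library as replicate block called 6 member pairs for L and 3 for S, as limma did. Member counts stayed within 1.5 times, and medians within the spread, under TMM and DESeq2 scaling, read minimums of 1 and 100 and length classes. Under TMM the median log2 ratio between libraries was -0.14 for members and -0.00 for all models, and under DESeq2 -0.12 and 0.01.

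Adding up the models of a symbol gave 55 symbols at 1 CPM and a median of 213.5 CPM; 1 symbol was then higher in library 3 and 0 lower (17.3% of all symbols called). At 2-fold, 1 member was higher and 0 lower, against 8.13% of all models in either direction, so those calls rest on the 1.5-fold limit. Without division by exon length 3 member pairs favoured L and 2 favoured S (20.8%, against 58.0% of all pairs); RRP15 stood at -0.71 and RRS1 at 0.12 (reversed), which the unequal model lengths set. In library 1 alone the median log2 L to S ratio was -0.047, and in library 3 alone 0.00078. The libraries' difference has no value without either of them. Depth limits NPM2, TSR2 on 8S and NOL4, where a model had between 1 and 400 reads.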
